A study of Mus musculus with 6 samples.

Results

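Osteoclasts are made when precursors of the monocyte lineage fuse, and they dissolve bone in a sealed, acid space beneath the cell. Fusion needs the membrane proteins DC-STAMP (*Dcstamp*) and OC-STAMP (*Ocstamp*). Acid is pumped by the V-ATPase, whose a3 subunit is the product of *Tcirg1* and whose d2 subunit is that of *Atp6v0d2*, while the chloride/proton exchanger ClC-7 (*Clcn7*) with its β subunit (*Ostm1*) balances the charge. Sorting nexin 10 (*Snx10*) serves endosomal traffic to the resorbing border, cathepsin K (*Ctsk*) cleaves collagen, tartrate-resistant acid phosphatase (*Acp5*) is the classic stain of the cell, and the calcitonin receptor (*Calcr*) marks the mature stage. Loss of *Tcirg1*, *Clcn7*, *Ostm1* or *Snx10* gives osteopetrosis in humans and mice. These 10 genes, chosen by name, are described here out of 23284 genes listed in each library. All 10 names were found.

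EGFP-positive cells had been sorted from calvarial tissue (the roof of the skull) of CX3CR1-EGFP mice, whose green fluorescent protein reports activity of the fractalkine receptor gene in monocytes and osteoclast precursors. Lipopolysaccharide (LPS), an inflammatory bacterial product, had been injected into the calvarial periosteum of every animal. In 3 libraries the mice also received CTLA4-Ig (abatacept), a fusion protein that binds CD80 and CD86, at 10 mg/kg, and in 3 they received whole human IgG at the same dose. Cells were collected after 5 days. All libraries thus share the LPS injection and the reporter allele. Replicates are called biological in the titles but are tied to no animal, so the spread between them may be partly technical. The sort gate follows *Cx3cr1* and is not specific to osteoclast precursors.

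Levels are FPKM, fragments scaled to transcript length and library depth. Depth was estimated from low values, taking as 1 fragment the median of FPKM times transcript kilobases inside a preset window. It came to 8.57e+06 to 1.04e+07 fragments in the CTLA4-Ig libraries and 8.78e+06 to 9.43e+06 fragments in the control IgG libraries. These estimates are approximate, since the window bounds the values they can take and the FPKM had been scaled between libraries. Differences were tested with limma on log2(FPKM + 1), a scale that understates changes of low genes, in the 10865 genes that averaged 1 FPKM or more, with Benjamini-Hochberg adjustment over all of them. At an adjusted p under 0.05 limma called 0 genes (0%), and 659 (6.07%) had an unadjusted p under 0.05. The summed FPKM of 15 neutrophil markers was 175287 to 241801 in the CTLA4-Ig libraries and 136198 to 155172 in the control IgG libraries, so the sum was higher in each CTLA4-Ig library. Most of the sum was *S100a8*, at 68260 to 95526 FPKM under CTLA4-Ig and 54771 to 62244 under control IgG, and *S100a9*. Of the 15 markers, 8 were higher without overlap, beside 6.50% of all genes tested. The other 7 overlapped. Among them the primary granule genes *Mpo*, *Elane* and *Prtn3* had log2 differences of -0.01, -0.05 and -0.12. *Retnlg*, *Cxcr2*, *Mmp8* and *Csf3r* had 1.07, 0.53, 0.21 and 0.11. The 10 monocyte markers summed to 3216 to 3541 FPKM under CTLA4-Ig and 3525 to 3783 under control IgG. Most of that sum was *Ly6c2*, at 2157 to 2304 FPKM under CTLA4-Ig and 2167 to 2335 under control IgG, a log2 difference of -0.01. Of the 10, 4 had a positive and 6 a negative log2 fold change, with a median of -0.00943, beside 52.3% negative over all genes tested. They ranged from -0.42 for *F13a1* to 0.30 for *Nr4a1*, both with overlapping libraries. Fewer cells of a type and less RNA per cell cannot be told apart in these bulk samples.

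The transport genes and *Acp5* were well detected, *Ctsk* and *Atp6v0d2* were low, and the fusion genes and *Calcr* were close to 0. By mean level over the 6 libraries the order was *Tcirg1* at 119 FPKM, *Snx10* at 47.0, *Ostm1* at 29.4, *Acp5* at 20.2, *Clcn7* at 17.3, *Ctsk* at 3.00, *Atp6v0d2* at 0.509, *Ocstamp* at 0.113, *Dcstamp* at 0.0554 and *Calcr* at 0.00536. The ranges over libraries of *Acp5* and *Clcn7* overlapped, as did those of *Ocstamp* and *Dcstamp* and of *Dcstamp* and *Calcr*. All other neighbours in the order were separate in their ranges. *Tcirg1* stood at percentiles 96.5 to 97.1 of all listed genes over the 6 libraries and *Atp6v0d2* at percentiles 48.4 to 51.7. Of the 10 genes, 6 passed the minimum of 1 FPKM and entered the test.

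**Figure D1:**
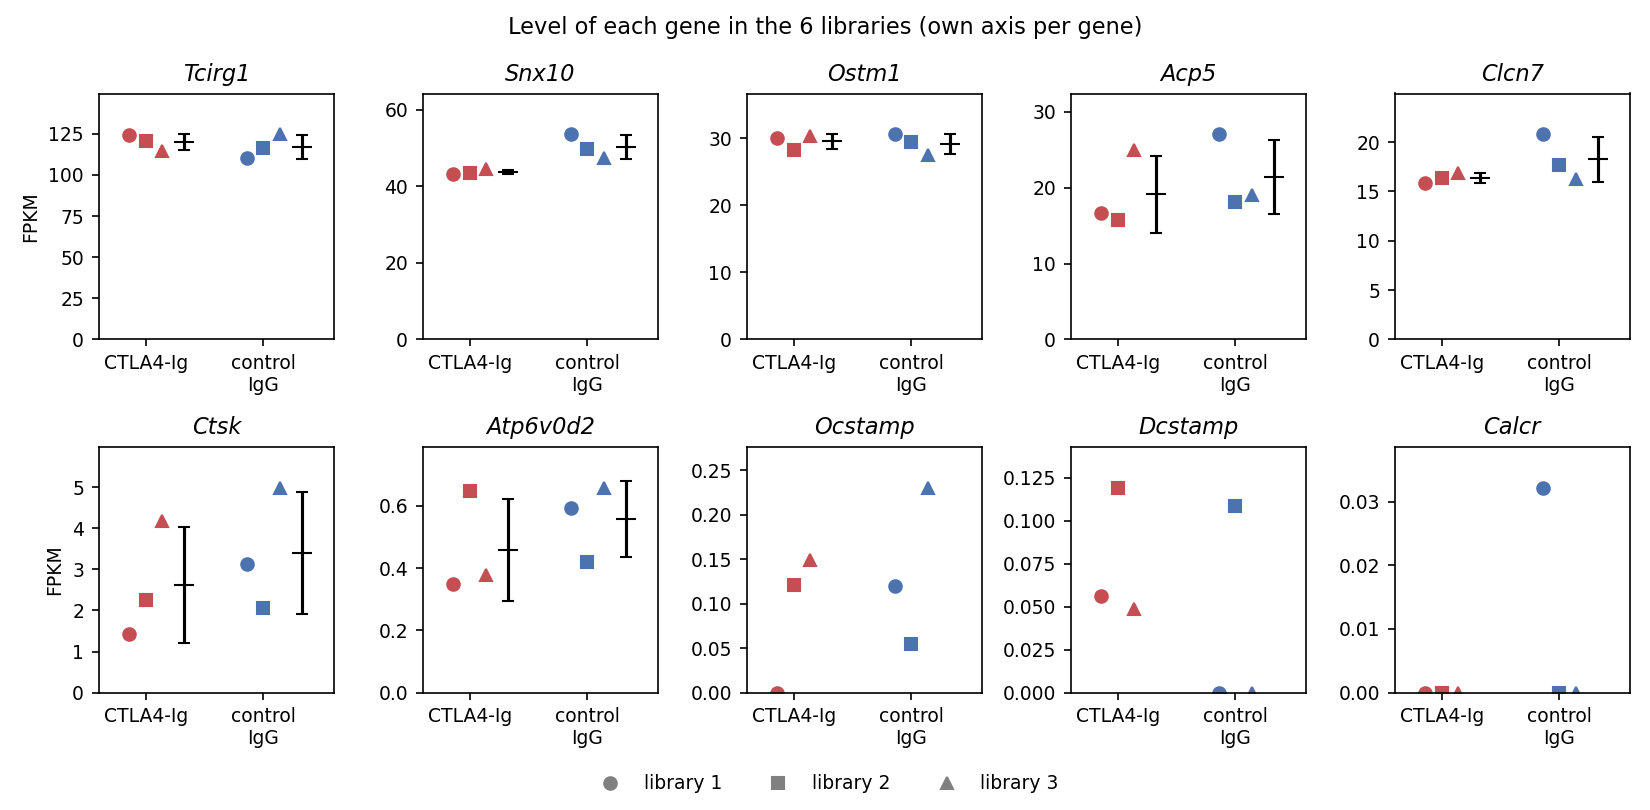
FPKM (vertical axis, its own scale for each gene, from 0) of the 10 genes in the 3 CTLA4-Ig libraries (red, left) and the 3 control IgG libraries (blue, right), with mean and SD as black bars where no library is at 0. *Snx10* has no overlap, with 43.3 to 44.4 FPKM under CTLA4-Ig and 47.5 to 53.5 under control IgG, and the last 3 panels lie under 0.25 FPKM.

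Promoter sequences were in the RefSeq table (GRCm38.p6) for 7 of the 10 genes, as 15 start sites, some of them overlapping. *Atp6v0d2*, *Dcstamp* and *Ocstamp* are named only. Each 250 bases before a start were searched on both strands for the E-box CACGTG of the MITF family, the AP-1 motif TGANTCA, the PU.1 core GAGGAA and the NFAT core GGAAA, since these factors are known to act on osteoclast genes. PU.1 and NFAT matches can overlap in GAGGAAA. The windows of 3 genes are shown: *Clcn7*, the only gene of the 7 with an E-box, *Ctsk*, the collagenase of the mature osteoclast, and *Snx10*, whose levels did not overlap between treatments. They are read 5′ to 3′ on the plus strand, with capitals marking matches to any of the 4 motifs.
Clcn7, chr17:25133141-25133390: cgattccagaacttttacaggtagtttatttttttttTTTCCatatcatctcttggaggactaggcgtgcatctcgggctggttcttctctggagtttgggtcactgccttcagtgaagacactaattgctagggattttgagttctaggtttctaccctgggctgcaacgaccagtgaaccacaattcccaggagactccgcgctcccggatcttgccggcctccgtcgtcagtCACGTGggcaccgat
Ctsk, chr3:95498960-95499209: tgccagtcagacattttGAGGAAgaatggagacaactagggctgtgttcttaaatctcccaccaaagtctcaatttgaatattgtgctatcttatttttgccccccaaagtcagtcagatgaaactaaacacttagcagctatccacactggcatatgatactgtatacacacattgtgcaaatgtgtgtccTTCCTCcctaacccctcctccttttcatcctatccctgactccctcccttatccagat
Snx10, chr6:51523653-51523902: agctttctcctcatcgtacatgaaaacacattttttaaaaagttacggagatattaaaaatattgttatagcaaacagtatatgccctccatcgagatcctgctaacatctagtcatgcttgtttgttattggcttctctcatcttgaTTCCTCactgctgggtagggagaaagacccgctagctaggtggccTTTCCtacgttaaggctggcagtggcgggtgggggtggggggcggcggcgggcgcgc

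The *Clcn7* window holds the E-box 15 bases before the start and an NFAT match 213 bases before it. The last 13 bases of that window lie inside the RefSeq gene span, as do the last 3 of the *Snx10* window. The *Ctsk* window holds PU.1 matches 233 and 58 bases before the start, and the *Snx10* window a PU.1 match 102 and an NFAT match 57 bases before it. An E-box was in 1 of the 15 windows and 6.02% of all 32851 windows in the table, and an AP-1 match in 1 of the 15, at another start of *Snx10*, and in 6.75% of all. PU.1 matches were in 3 of the 15 (23.3% of all) and NFAT matches in 9 of the 15 (55.6% of all). A match of these letters is a description of the sequence, not evidence of binding.

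The fusion genes and the calcitonin receptor were at the limit of detection. *Dcstamp* (chromosome 15, 39745930 to 39760938, GRCm38) had 0.0561, 0.119 and 0.0488 FPKM in CTLA4-Ig libraries 1 to 3, against 0, 0.108 and 0 FPKM in control IgG libraries 1 to 3. Scaled by depth, these values were 1, 2 and 1 times the smallest under CTLA4-Ig and 2 times the smallest in the only control IgG library above 0. At its longest GENCODE transcript of 1997 bases the smallest value is 1 fragment, so the gene rested on about 4 fragments under CTLA4-Ig and 2 under control IgG. *Ocstamp* (chromosome 2, 165395450 to 165400394) was listed at 0, 0.122 and 0.149 FPKM under CTLA4-Ig and at 0.120, 0.0553 and 0.231 FPKM under control IgG. These are whole multiples of its smallest value to within 0.0356, namely 0, 2 and 3 under CTLA4-Ig and 2, 1 and 4 under control IgG. The smallest would be 2 fragments at the GENCODE length of 3657 bases and 1 fragment for a shorter model, and the authors' model is not given in the sources used here. *Calcr* (chromosome 6, 3685678 to 3764713) was listed at 0 in the 3 CTLA4-Ig libraries and in control IgG libraries 2 and 3, and at 0.0322 FPKM, about 1 fragment, in control IgG library 1. No fold change is given for these 3 genes, and a difference between treatments was not detectable at this depth.

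Of 8 other genes of the calcitonin family, 2 passed the minimum of 1 FPKM. *Calcrl*, the receptor for CGRP and adrenomedullin, averaged 6.61 ± 0.165 FPKM under CTLA4-Ig and 5.53 ± 1.18 under control IgG (SD, n = 3 each). *Ramp1*, which turns that receptor towards CGRP, averaged 44.8 ± 4.50 FPKM under CTLA4-Ig and 41.2 ± 4.09 under control IgG. The accessory protein genes *Ramp2* and *Ramp3* and the peptide gene *Adm* averaged 0.169, 0.0499 and 0.0124 FPKM over the 6 libraries, and the peptide genes *Calca*, *Calcb* and *Iapp* were listed at 0 in all of them. Genes of the fusion list, the resorption list and the list of RANK and ITAM signalling spanned a wide range. The surface receptor gene *Sirpa* averaged 175 FPKM over the 6 libraries and its ligand gene *Cd47* 115. *Siglec15*, a sialic acid receptor of the osteoclast lineage, and *Oscar*, an immunoglobulin-like costimulatory receptor, were listed at 0 in all 6 libraries, and *Src*, the kinase needed for the ruffled border, ranged from 0.0792 to 0.333 FPKM. The receptor RANK itself (*Tnfrsf11a*) averaged 1.60 ± 0.144 FPKM under CTLA4-Ig and 1.81 ± 0.187 under control IgG (SD, n = 3 each).

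V-ATPase subunits ranged from nearly absent to abundant. *Atp6v0d2* (chromosome 4, 19876838 to 19922566) had 0.349, 0.649 and 0.379 FPKM under CTLA4-Ig, against 0.595, 0.421 and 0.659 FPKM under control IgG. At its longest GENCODE transcript that is about 8, 14 and 10 fragments under CTLA4-Ig and 13, 10 and 15 under control IgG. The groups overlapped, and the difference on the log2(FPKM + 1) scale was -0.10 (exact permutation test, two-sided, p = 0.4, and the smallest p that 3 libraries a group allow is 0.1). Its widely expressed relative *Atp6v0d1* averaged 107.0 ± 6.29 FPKM under CTLA4-Ig and 106.5 ± 13.7 under control IgG, so d2 made up 0.422 ± 0.124% of the summed d subunit FPKM under CTLA4-Ig and 0.523 ± 0.117% under control IgG (SD, n = 3 each).

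Among the a subunits *Tcirg1* was the main transcript, and which of the sorted cells made it was not tested. *Tcirg1* (chromosome 19, 3896050 to 3907133) had 124.3, 120.7 and 114.7 FPKM under CTLA4-Ig, against 110.2, 116.6 and 124.6 FPKM under control IgG. The groups overlapped fully, with a log2 fold change of 0.03 ± 0.07 (SE) and a 95% interval of -0.12 to 0.19 (limma, adjusted p = 0.9583). It held 77.3 ± 0.750% of the summed a subunit FPKM under CTLA4-Ig and 76.8 ± 2.39% under control IgG (SD, n = 3 each; two-sided exact permutation p = 0.8). *Atp6v0a2* held 12.9 ± 0.331% under CTLA4-Ig and 14.3 ± 1.43% under control IgG, and *Atp6v0a1* held 9.83 ± 1.03% under CTLA4-Ig and 8.90 ± 1.43% under control IgG. The kidney isoform *Atp6v0a4* was listed at 0 throughout.

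Of the other 23 V-ATPase and accessory genes, 17 were tested, 7 with a positive and 10 with a negative log2 fold change, at a median of -0.01 against -0.01 over all genes tested. In limma 0 passed at an adjusted p under 0.05 and 0 had an unadjusted p under 0.05, beside 6.07% of all genes tested at the latter. Libraries did not overlap for *Atp6v1f*, a stalk subunit of the V1 sector, at 183 ± 0.800 FPKM under CTLA4-Ig and 170 ± 6.08 under control IgG, or for *Atp6v1c1*, which encodes subunit C, at 36.7 ± 1.71 FPKM under CTLA4-Ig and 39.6 ± 1.24 under control IgG (SD, n = 3 each). Over all genes tested, 12.2% had no overlap. The interval for *Atp6v1f* was -0.02 to 0.23 and that for *Atp6v1c1* -0.25 to 0.03 on the log2 scale.

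**Figure D2:**
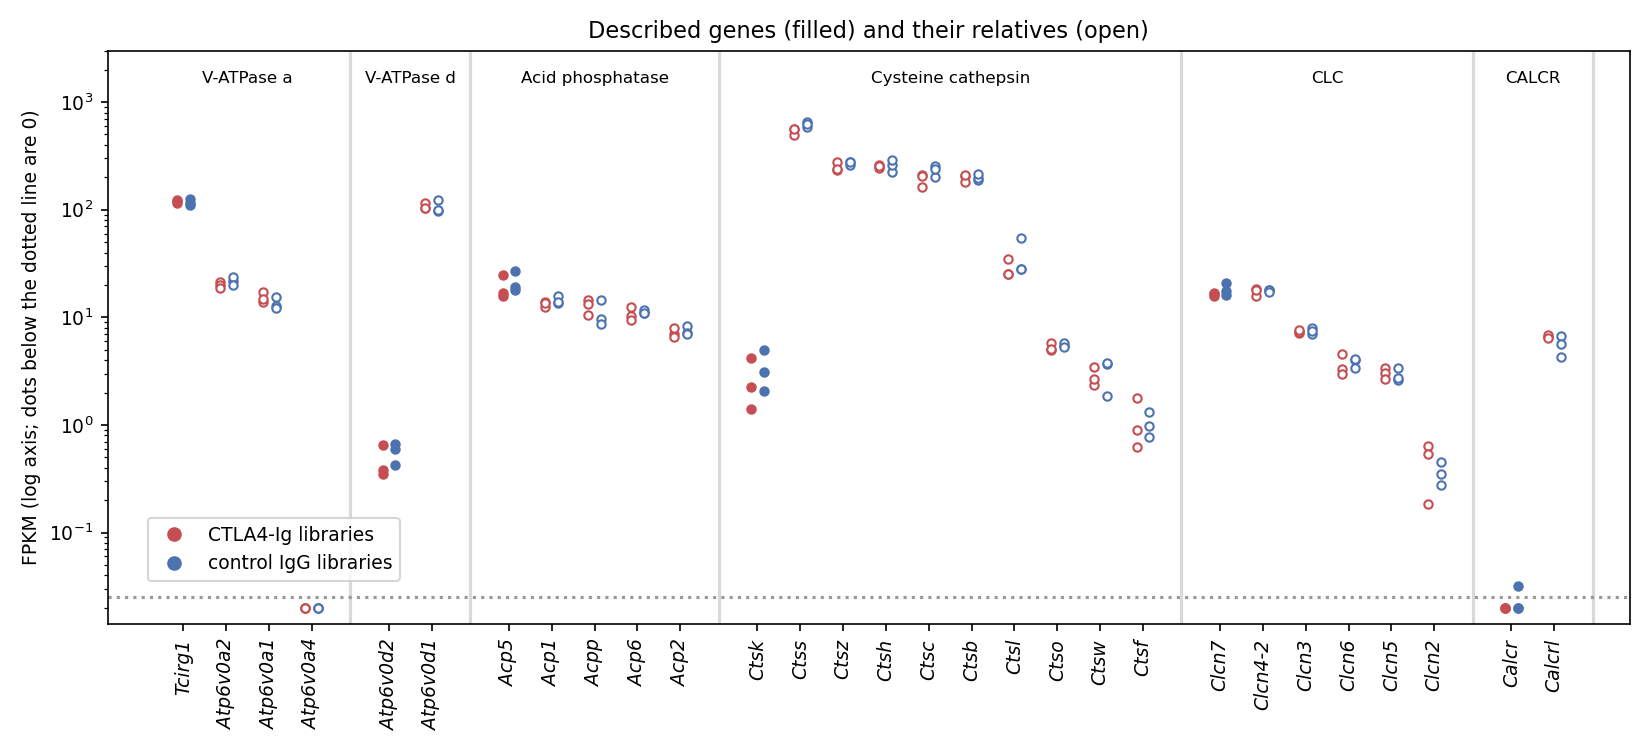
FPKM on a log axis of described genes (filled) and their relatives (open), with 1 dot per library, CTLA4-Ig in red on the left of each pair and control IgG in blue on the right. *Atp6v0d2* lies near 0.5 FPKM beside *Atp6v0d1* above 97 FPKM, *Ctsk* lies below *Ctss*, *Ctsz*, *Ctsh*, *Ctsc* and *Ctsb*, and dots under the dotted line are listed at 0.

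The chloride exchanger and its β subunit were both well detected. *Clcn7* (chromosome 17, 25133378 to 25162103) had 15.9, 16.4 and 16.9 FPKM under CTLA4-Ig, against 20.8, 17.7 and 16.3 FPKM under control IgG. Control IgG library 1 was the highest and library 3 lay among the CTLA4-Ig values, so the groups overlapped. The log2 fold change was -0.14 ± 0.09 (SE), with a 95% interval of -0.36 to 0.08 (limma, adjusted p = 0.8899), and it was -0.05 without control IgG library 1. *Ostm1* (chromosome 10, 42678916 to 42702462) had 30.1, 28.2 and 30.4 FPKM under CTLA4-Ig, against 30.6, 29.5 and 27.6 FPKM under control IgG. Its residual SD was 0.0650 on the log2 scale against a median of 0.115 over all genes, with a log2 fold change of 0.02 ± 0.06 (SE; limma, adjusted p = 0.9828). The exons of *Ostm1* overlap the antisense gene Gm15200, and those of *Acp5* the antisense gene 6530413G14Rik, in GENCODE M21. The libraries were stranded, but the use of strand in counting is not given in the sources used here, so reads of such partners may be mixed.

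As a pair, *Ostm1* exceeded *Clcn7* in every library. The ratio of their FPKM was 1.89, 1.72 and 1.80 under CTLA4-Ig, against 1.47, 1.66 and 1.69 under control IgG. The groups did not overlap, but the smallest p this design allows was also the p found (two-sided exact permutation p = 0.1), and the ratio was chosen after the values were seen. *Clcn7* held 34.0 ± 1.20% of the summed FPKM of 9 CLC genes under CTLA4-Ig and 36.0 ± 2.61% under control IgG (SD, n = 3 each), close to the endosomal exchanger gene *Clcn4-2* at 17.3 ± 1.41 FPKM under CTLA4-Ig and 17.7 ± 0.587 under control IgG. Of the 4 other CLC genes tested, 3 were negative and 1 positive, and limma called 0 at an adjusted or an unadjusted p under 0.05. The share of all genes tested with an unadjusted p under 0.05 was 6.07%.

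Of the 6 tested genes, *Snx10* was the 1 whose libraries did not overlap between treatments. *Snx10* (chromosome 6, 51523900 to 51590679) had 43.3, 43.6 and 44.4 FPKM under CTLA4-Ig, against 53.5, 49.9 and 47.5 FPKM under control IgG. Each CTLA4-Ig library was below each control IgG library, as in 5.69% of all genes tested. The log2 fold change was -0.20 ± 0.06 (SE), with a 95% interval of -0.34 to -0.05, an unadjusted p = 0.0152 and an adjusted p = 0.7196 in limma, so it did not pass. Of all genes tested, 1.98% were lower at an unadjusted p under 0.05. Leaving out each library in turn gave -0.24 to -0.15. In the same libraries the summed neutrophil markers, mostly *S100a8* and *S100a9*, were 175287, 241801 and 213330 FPKM under CTLA4-Ig and 137906, 155172 and 136198 under control IgG, and their part in the *Snx10* difference was not tested.

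The nearest relative did not share that order. *Snx11* had 21.2, 21.7 and 19.1 FPKM under CTLA4-Ig, against 19.7, 19.3 and 17.5 FPKM under control IgG, a log2 fold change of 0.13 ± 0.08 (SE; limma, adjusted p = 0.8784). The ratio of *Snx10* to *Snx11* was 2.05, 2.01 and 2.32 under CTLA4-Ig, against 2.72, 2.59 and 2.71 under control IgG (exact permutation test, two-sided, p = 0.1, again the smallest allowed; chosen after the values were seen). Of the 26 other sorting nexins tested, 13 were positive and 13 negative, with a median log2 fold change of -0.00317 against -0.00633 over all genes, and limma found 0 at an adjusted and 0 at an unadjusted p under 0.05. *Snx1*, a retromer-associated nexin, had a log2 fold change of -0.18 (-0.24 to -0.12 when each library was left out in turn) and *Snx33* had 0.30. *Snx33* averaged 1.40 FPKM under CTLA4-Ig and 0.969 under control IgG, and its value was 0.54 with a pseudocount of 0.1. None of these 26 had groups without overlap. Over all genes tested, 12.2% had no overlap and 6.07% had an unadjusted p under 0.05 in limma.

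**Figure D3:**
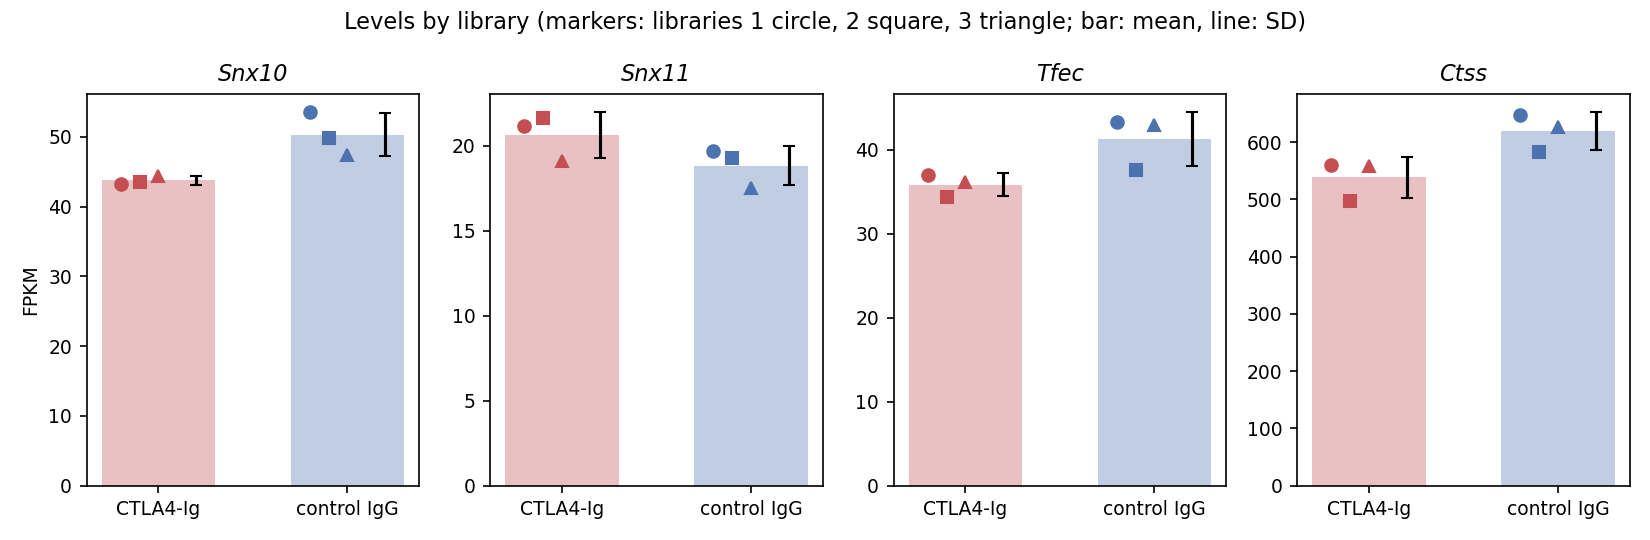
FPKM of *Snx10*, its relative *Snx11*, the MITF family gene *Tfec* and the cathepsin gene *Ctss* in each library (markers), with the mean as a bar from 0 and the SD (n = 3) as a line, CTLA4-Ig left and control IgG right. *Snx10*, *Tfec* and *Ctss* are lower in each CTLA4-Ig library, and *Snx11* overlaps.

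The secreted enzymes were present at unequal levels and varied most. *Acp5* (chromosome 9, 22126727 to 22135746) had 16.7, 15.7 and 24.9 FPKM under CTLA4-Ig, against 27.0, 18.1 and 19.05 FPKM under control IgG. CTLA4-Ig library 3 and control IgG library 1 stood above the other 4, and the groups overlapped. The log2 fold change was -0.16 ± 0.21 (SE), with a 95% interval of -0.66 to 0.33 (limma, adjusted p = 0.9287), and it turned to 0.01 without control IgG library 1. The same 2 libraries were highest in the summed resident macrophage markers, at 105.4, 134.1 and 227.4 FPKM under CTLA4-Ig and 144.5, 92.1 and 115.8 under control IgG over 11 genes, and in the complement gene *C1qa* of macrophages, at 50.2 FPKM in that CTLA4-Ig library and 25.6 in that control IgG library. Other genes of that list did not follow this order: in control IgG library 1, *Vcam1* (10.5 FPKM) and *Siglec1* (0.527 FPKM) were the lowest of the 6 libraries, and *Timd4* was listed at 0. *Acp5* is also known from macrophages, and the part of such cells in its level was not tested. It held 30.0 ± 4.17% of the summed FPKM of 5 acid phosphatase genes under CTLA4-Ig and 32.5 ± 2.74% under control IgG (SD, n = 3 each), ahead of the cytosolic *Acp1* at 13.3 ± 0.718 FPKM under CTLA4-Ig and 14.4 ± 1.13 under control IgG.

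Among 10864 other genes, those whose standardised log2 levels lay closest to *Acp5* over the 6 libraries were *Rpl4*, *Rps20* and *Rpl7*, with root mean square differences of 0.0830, 0.117 and 0.123 SD. *Rpl4* had 1109, 1084 and 1314 FPKM under CTLA4-Ig and 1386, 1158 and 1197 under control IgG. All 3 encode cytosolic ribosomal proteins. With so many genes and 6 libraries, close matches are common, and all points share the libraries' depth and composition.

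*Ctsk* was a minor cathepsin of these cells. *Ctsk* (chromosome 3, 95499210 to 95509387) had 1.41, 2.25 and 4.17 FPKM under CTLA4-Ig, against 3.13, 2.05 and 4.98 FPKM under control IgG. At its GENCODE length of 1512 bases that is about 20, 29 and 66 fragments under CTLA4-Ig and 42, 29 and 69 under control IgG. Values within each group differed by more than the groups did, and the log2 fold change of -0.30 ± 0.34 (SE) had a 95% interval of -1.10 to 0.50 (limma, adjusted p = 0.9259). Its residual SD of 0.521 was the largest among the 6 tested genes. Of the summed FPKM of 10 cysteine cathepsin genes it held 0.178 ± 0.0972% under CTLA4-Ig and 0.205 ± 0.0818% under control IgG (SD, n = 3 each). *Ctsk* is also made by fibroblasts and other stromal cells. The 13 osteoblast and stromal markers summed to 37.1, 43.8 and 43.9 FPKM under CTLA4-Ig and 31.8, 43.6 and 49.8 under control IgG. Most of that sum was *Spp1*, at 12.8 to 17.8 FPKM over the 6 libraries, and *Runx2*, at 8.13 to 13.8. The collagen gene *Col1a1* stood at 1.15 to 7.20 FPKM, and *Sost* was listed at 0 in all 6 libraries. The part of stromal cells in the *Ctsk* level was not tested.

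The genes closest to *Ctsk* in their standardised levels were *Snx32*, *Spg7* and *Ndufc2*, at root mean square differences of 0.213, 0.230 and 0.231 SD over the same 6 libraries. *Snx32* had 2.78, 3.02 and 4.29 FPKM under CTLA4-Ig and 3.71, 3.08 and 4.19 under control IgG.

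The most abundant of its relatives was *Ctss*, cathepsin S of antigen-presenting cells. It had 559.8, 497.0 and 558.9 FPKM under CTLA4-Ig, against 648.1, 583.6 and 627.0 FPKM under control IgG. Each CTLA4-Ig library was lower, with a log2 fold change of -0.20 ± 0.08 (SE; unadjusted p = 0.0334 and adjusted p = 0.7615 in limma). Of 12 other cathepsin and cystatin genes tested, 9 were negative and 3 positive, with a median log2 fold change of -0.06, and *Ctss* was the 1 gene with an unadjusted p under 0.05. Over all genes tested, 52.3% were negative, 6.07% had an unadjusted p under 0.05 and 5.69% were lower without overlap. *Ctsc*, the activator of granule serine proteases, had a log2 fold change of -0.27 (-0.37 to -0.14 when each library was left out in turn) and *Ctsz* -0.12 (-0.19 to -0.07). The inhibitor cystatin C, encoded by *Cst3*, averaged 1329 ± 142 FPKM under CTLA4-Ig and 1297 ± 177 under control IgG (SD, n = 3 each).

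As a group, the 6 tested effectors had 4 negative and 2 positive log2 fold changes, with a median of -0.15 against -0.01 over all genes tested, where 52.3% were negative. That median lay between *Acp5* and *Clcn7*, whose log2 fold changes were 0.01 and -0.05 without control IgG library 1. *Snx10* had -0.15 without it. Control IgG library 1 had the highest levels of *Acp5*, *Clcn7* and *Snx10*. Of the 6, limma called 0 at an adjusted p under 0.05 and 1, *Snx10*, had an unadjusted p under 0.05, beside 6.07% of all genes. None of the 6 was higher without overlap, as 6.50% of all genes were. The 4 genes under 1 FPKM are not in these counts. Intervals were narrow for *Tcirg1*, *Ostm1* and *Snx10* and wide for *Acp5* and *Ctsk*, where a difference of -0.5 lies inside the interval.

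**Figure D4:**
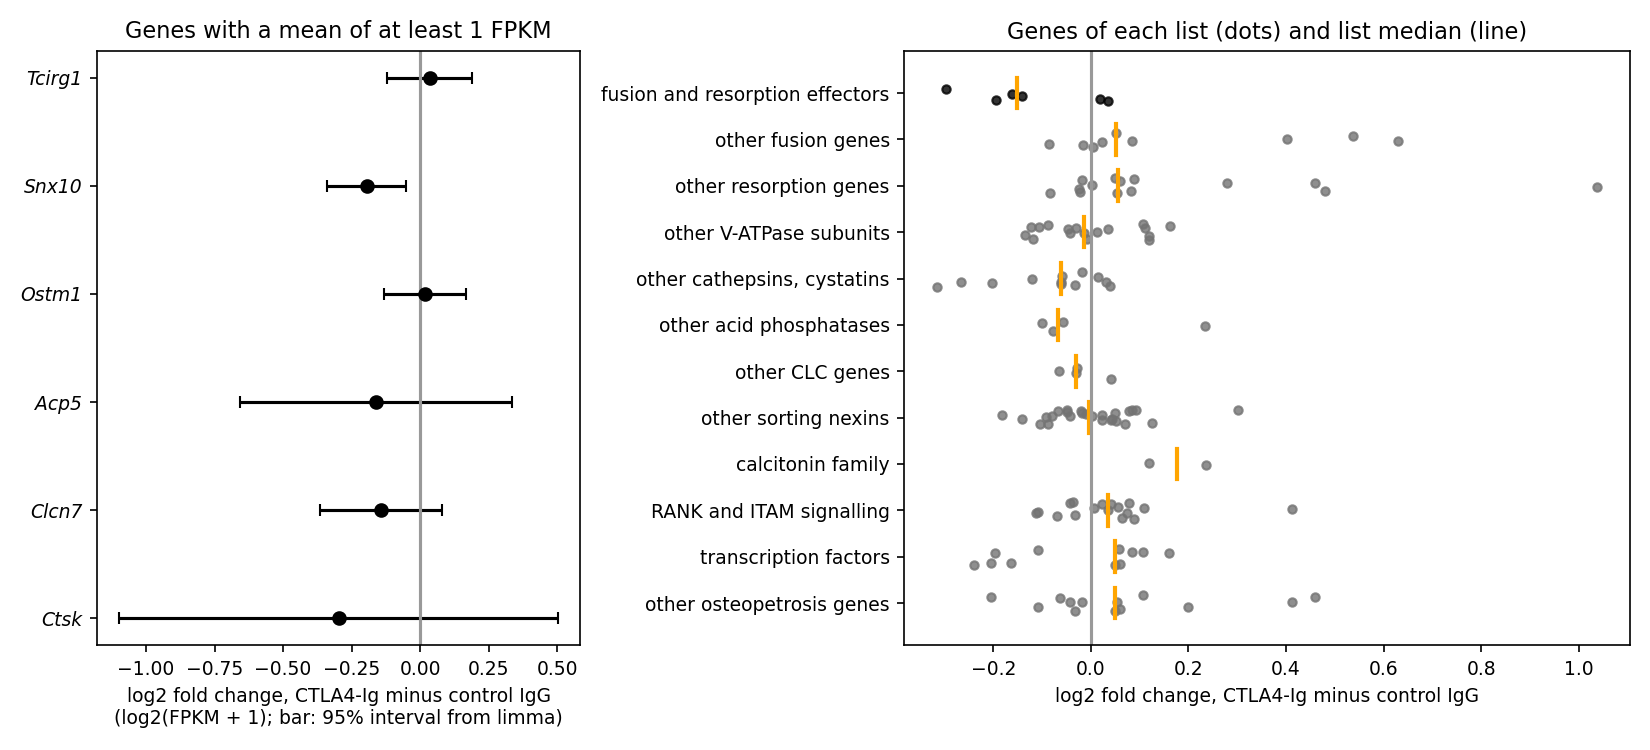
Left, log2 fold change on the log2(FPKM + 1) scale, CTLA4-Ig minus control IgG, of the 6 tested effectors with 95% intervals from limma. Right, the same quantity for the tested genes of each list (dots) with the list median (orange line): the effectors have a median of -0.15, and the rightmost dot is *Mmp9* at 1.04. Without control IgG library 1, the values of *Acp5* and *Clcn7*, on either side of the effector median, were 0.01 and -0.05. Some genes are in several lists, among them most of the osteopetrosis genes.

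The lists of other resorption and fusion genes held more positive than negative log2 fold changes, beside 52.3% negative over all genes tested. No gene of these lists passed the test. Of 14 other resorption genes 10 were positive and 4 negative (median 0.06), and 3 had an unadjusted p under 0.05 in limma, all higher under CTLA4-Ig, beside 4.09% of all genes tested. These were *Mmp9*, a gelatinase of osteoclasts and neutrophils, at a log2 fold change of 1.04 ± 0.20 (SE), *Rab3d*, a small GTPase of secretory vesicles, at 0.28 ± 0.06, and the integrin β3 gene *Itgb3* at 0.48 ± 0.20, with adjusted p = 0.7196, 0.7196 and 0.8161. *Rab3d* had 66.3, 73.9 and 65.2 FPKM under CTLA4-Ig, against 55.4, 57.1 and 56.1 FPKM under control IgG. *Itgb3* had 10.7, 11.4 and 11.6 FPKM under CTLA4-Ig, against 5.30, 10.1 and 8.65 FPKM under control IgG, and its log2 fold change was 0.24 without control IgG library 1. Of 9 other fusion genes 7 were positive and 2 negative (median 0.05), with an unadjusted p under 0.05 for the tetraspanin genes *Cd9* (log2 fold change 0.63) and *Cd81* (0.40), beside the same 4.09%. The value of *Cd9* was 0.41 without control IgG library 1, and the libraries of *Cd81* overlapped between treatments. The summed neutrophil markers given above were higher in each CTLA4-Ig library, *Mmp9* is itself 1 of those 15 markers, and their part in both lists was not tested.

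Upstream of the effectors, 17 of 21 genes of the RANK and ITAM pathway and 11 of 14 transcription factors of the lineage passed the minimum of 1 FPKM. *Oscar*, listed at 0 in every library, was among those that did not. Of 17 tested pathway genes 11 were positive and 6 negative (median log2 fold change 0.03). At an unadjusted p under 0.05 limma found 0 of them, beside 6.07% of all genes tested. *Nfatc1*, the master regulator of osteoclast genes, stood at 24.3 ± 0.256 FPKM under CTLA4-Ig and 23.5 ± 0.507 under control IgG (SD, n = 3 each), without overlap. *Tyrobp*, which encodes the adaptor DAP12, had a log2 fold change of 0.11, also without overlap. Of all genes tested, 6.50% were higher without overlap. The value of *Tyrobp* was 0.04 without control IgG library 1. *Ppp3r1*, a calcineurin subunit gene, had -0.07 (-0.11 to -0.03 when each library was left out in turn) and the phospholipase gene *Plcg2* 0.08 (0.00859 to 0.12). Of 11 transcription factors 6 were positive and 5 negative, and the 2 with an unadjusted p under 0.05, *Myc* and *Tfec*, were both lower in each CTLA4-Ig library. Of all genes tested, 1.98% were lower at that p and 5.69% were lower without overlap.

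*Tfec* belongs to the MITF family, which binds E-box sequences of lysosomal and osteoclast genes. It had 37.0, 34.3 and 36.2 FPKM under CTLA4-Ig, against 43.2, 37.6 and 43.0 FPKM under control IgG, a log2 fold change of -0.20 ± 0.07 (SE; unadjusted p = 0.0311 and adjusted p = 0.7527 in limma). *Mitf* averaged 2.62 ± 0.534 FPKM under CTLA4-Ig and 3.15 ± 0.262 under control IgG, *Tfeb* 28.3 ± 3.34 under CTLA4-Ig and 27.1 ± 0.639 under control IgG, and *Tfe3* 28.2 ± 3.01 under CTLA4-Ig and 26.9 ± 1.60 under control IgG (SD, n = 3 each). Of 13 other genes whose loss gives osteopetrosis, 7 were positive and 6 negative, with a median log2 fold change of 0.05. At an unadjusted p under 0.05 limma found 0 of these, beside 6.07% of all genes tested. Most of the osteopetrosis genes are also in the lists of resorption, pathway or transcription factor genes above, so their counts are not a separate result.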

How the data were processed

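RNA sequencing of 6 libraries was deposited as FPKM, with 1 value per gene name and library, scaled between libraries by the authors. The submitters' processing notes name Cuffnorm 2.2.1, Bowtie2 2.2.3, TopHat2 2.0.13 and SAMtools 0.1.19, and build mm10. Settings and annotation: not given in the sources used here. Per the labels' protocols, libraries were made with a stranded mRNA kit. The treatment label gave the groups, and titles the replicate numbers.

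On the log2(FPKM + 1) scale, limma 3.58.1 (R 4.3.3, trend, 1 factor) was fitted to all genes averaging 1 FPKM or more, Benjamini-Hochberg adjusted at 0.05, and tested on simulated data. Shares, ratios and *Atp6v0d2* were compared with two-sided exact permutation tests. The depth was estimated from the lowest values, inside a preset window, of genes with 1 GENCODE M21 transcript over 1500 bases. FPKM tables hold no counts, so no count test was run. Python 3.11.15, pandas 2.3.3, numpy 2.4.6 and matplotlib 3.10.9 were used. The 10 genes and the lists were chosen with earlier results of these data known. Of 235 list genes, 232 were matched, 3 through an older symbol. All 10 genes and, from each other list, the 3 tested genes with the smallest unadjusted p could be named, as could relatives and partners by level. *Sirpa*, *Cd47*, *Siglec15*, *Oscar*, *Src*, *Nfatc1*, *Cst3*, *C1qa*, *Vcam1*, *Siglec1*, *Timd4*, *S100a8*, *S100a9*, *Mpo*, *Elane*, *Prtn3*, *Ly6c2*, *Col1a1* and *Car2* were named after their values were seen. So were *Retnlg*, *Cxcr2*, *Mmp8*, *Csf3r*, *F13a1*, *Nr4a1*, *Spp1*, *Runx2*, *Hba-a1* and *Hbb-b1*. Other settings tried were a minimum mean of 5 FPKM or none, pseudocounts 0.1 and 0.5, quantile and median-of-ratios scaling, a fit without trend, the replicate number as a block, and omission of single libraries.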

Additional observations from a re-analysis of the deposited data

How the results depend on the processing

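With a minimum mean of 5 FPKM or none, pseudocounts 0.1 and 0.5, quantile or median-of-ratios scaling, or no trend, limma again called 0 genes at an adjusted p under 0.05 (562 to 892 at an unadjusted p under 0.05), and the log2 fold changes of the 6 tested effectors kept their sign. *Ctsk* has no value at that minimum of 5 FPKM. With the replicate block, *Snx10* had -0.20 (adjusted p = 0.8414) and limma called 0 genes (619 at an unadjusted p under 0.05). Same-numbered libraries deviated with correlations of -0.154, -0.0942 and -0.0235 across genes, so the numbers were not taken as pairs. Leaving out each library in turn, limma called 0 to 6 genes, the 6 without CTLA4-Ig library 3, and the log2 fold change ranged from -0.359 to 0.0113 for *Acp5*, -0.59 to -0.04 for *Ctsk*, -0.00807 to 0.0799 for *Tcirg1*, -0.22 to -0.05 for *Clcn7*, -0.0219 to 0.0508 for *Ostm1*, -0.24 to -0.15 for *Snx10* and -0.19 to -0.04 for *Atp6v0d2*. It also changed sign for *Cx3cr1* (-0.32 to 0.34), *Csf1r* (-0.134 to 0.0859), *Acp6* (-0.182 to 0.00688), *Clcn6* (-0.209 to 0.0349), *Clcn4-2* (-0.0693 to 0.0348) and *Clcn3* (-0.0668 to 0.0145), and the cause was not tested. Depth limits *Dcstamp*, *Ocstamp* and *Calcr* to a few fragments per library.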

Other observations

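*Car2*, which encodes the carbonic anhydrase that supplies protons in osteoclasts and is also abundant in red cell precursors, stood apart in 1 library. It had 18.5, 18.1 and 23.9 FPKM under CTLA4-Ig, against 4.31, 24.2 and 25.7 FPKM under control IgG. The 5 erythroid markers summed to 28.3, 33.3 and 37.2 FPKM under CTLA4-Ig and 4.57, 48.1 and 38.3 under control IgG. Most of that sum was *Hba-a1*, at 23.1, 27.3 and 28.3 FPKM under CTLA4-Ig and 3.57, 41.3 and 30.4 under control IgG. *Hbb-b1* did not exceed 0.00908 FPKM in any library. Control IgG library 1 was thus the lowest in *Car2* and in the erythroid sum, and the part of red cell precursors in *Car2* was not tested. That library also had the lowest *Itgb3*, at 5.30 FPKM, and the highest *Acp5*, *Clcn7* and *Snx10* of the 6 libraries.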
